A study of Homo sapiens with 2 samples.

Results

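The 35 genes described here carry out the repair of DNA interstrand crosslinks and of DNA breaks. They comprise Fanconi anaemia genes, genes of homologous recombination, genes of nonhomologous end joining, the checkpoint kinase gene ATR and the translesion polymerase gene REV3L. A gene entered through the probe sets that the array annotation assigns to its symbol alone, on both arrays. The matching used no measured value, but the genes were listed with earlier results of these arrays known. Of the 35 genes, 31 were matched in this way, by 71 of the 54675 probe sets on the array. BRCA2, FANCA, FANCD2 and RBBP8 were not analysed here.

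RNA came from PLC/PRF/5, a human liver cancer cell line long kept in culture, so both groups are cultures of 1 line. The first group was chemoresistant hepatospheres, which are tumour spheroids treated with cisplatin, a platinum drug that crosslinks DNA, combined with doxorubicin, an anthracycline that traps topoisomerase II on DNA. The other group was differentiated cells, made by giving spheroids fetal bovine serum and letting them attach. With 1 array per group there is no test and no error for any difference, and precision is limited by the number of arrays. Drug doses and treatment times are not given here. It is not stated whether the spheroids that gave rise to the differentiated cells had met the drugs, and growth form, serum and drug treatment cannot be told apart in this comparison.

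An interstrand platinum crosslink joins both strands of DNA and blocks replication forks. In the textbook account, the Fanconi core complex recognises the stalled fork and attaches ubiquitin to a clamp made of FANCD2 and FANCI, nucleases then unhook the crosslink, a translesion polymerase fills one strand, and homologous recombination rebuilds the broken one from the sister chromatid. Recombination needs a sister chromatid and therefore works in S and G2 phase, whereas end joining rejoins broken ends in all phases of the cell cycle.

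Signals are MAS5 values on a linear scale, 1 per probe set. A gene was read on its brightest probe set, by mean log2 signal. It counted as measured when that probe set reached a floor of 84.1 signal units, the higher of the median signals of the arrays, on at least 1 array. Of the 31 genes, 30 were measured, and these 30 were above the floor on both arrays, so none of their differences is a bound. RAD51B, a gene of homologous recombination, was below the floor on both arrays, at 82.8 in hepatospheres and 48.6 in differentiated cells.

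Most of the repair genes gave lower signals in hepatospheres, the majority of them by less than 2-fold. Of the 30 measured genes, 9 were at least 2-fold lower in hepatospheres and 0 at least 2-fold higher, and 21 were within 2-fold. Over all 12766 measured genes 8.83% were at least 2-fold lower and 12.5% at least 2-fold higher. The median log2 difference of the 30 genes was -0.76, against 0.05 for all measured genes. Below 0 lay 28 of the 30 genes, against 47.3% of all measured genes. The 9 lower genes were FANCB, BARD1, FANCI, EXO1, BRCA1, BLM, BRIP1, FANCF and MRE11. The 2 genes above 0 were LIG4 and RAD50, and both also came out below 0 with median centring, with scaling to the poly(A) control RNAs and with the mean over probe sets.

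**Figure D1:**
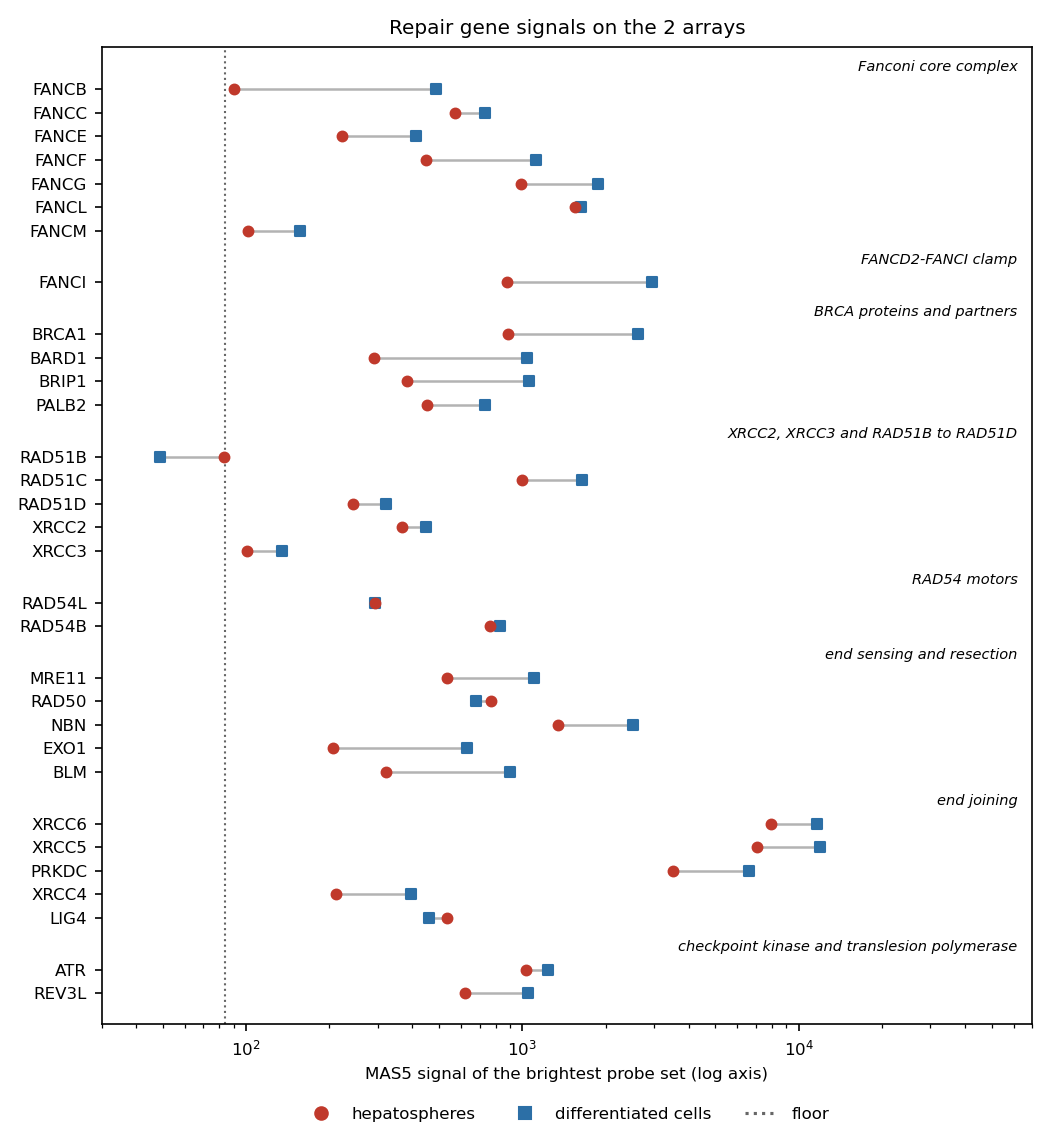
MAS5 signal (log axis) of the brightest probe set of each of the 31 genes, with circles for hepatospheres and squares for differentiated cells, 1 array each, grouped by role, and a dotted line at the floor of 84.1. The circle lies left of the square for 28 of the 30 measured genes, counting RAD54L, whose signals were nearly equal. FANCB in hepatospheres, at 90.3, lies just above the floor.

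These values stand relative to the bulk of genes on each array, because MAS5 scales each array globally. The 24 probe sets of the poly(A) control RNAs, which are added to a sample before labelling, were 2.04-fold higher on the hepatosphere array in the median. Scaling the arrays to them moved the median of all measured genes to -0.93. At least 2-fold lower were then 27 of the 30 repair genes, beside 46.5% of all measured genes. Relative to all measured genes, the median of the repair genes was -0.81 with the deposited scaling and -0.86 with the poly(A) scaling. The 3' to 5' signal ratio of ACTB, a sign of RNA integrity, was 2.64 on the hepatosphere array and 1.48 on the array of differentiated cells, and that of GAPDH was 1.04 and 0.99. The part of these array differences in the result was not tested. Of 9 hepatocyte markers all 9 were measured, of which 4 were at least 2-fold higher in hepatospheres, 1 (AHSG, at -1.17) at least 2-fold lower and 4 within 2-fold, and their summed signals were 209355 in hepatospheres and 101850 in differentiated cells. The epithelial keratin KRT8 was 2.16-fold lower in hepatospheres, at -1.11, and KRT18 stood at -0.76. The epithelial markers CDH1 and EPCAM, the leukocyte markers PTPRC, CD3E and CD14 and the endothelial markers VWF and CDH5 were below the floor on both arrays. So were the fibroblast markers PDGFRB, at 66.9 in hepatospheres and 11.1 in differentiated cells, and ACTA2, at 48.1 and 8.63. Other markers of blood, endothelial and fibroblast cells that were measured were PECAM1, at 3787 in hepatospheres and 3388 in differentiated cells, COL1A1 at 471 and 290.2, COL3A1 at 679 and 42.6, and HBB at 251 and 169.

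Proliferation genes differed between the arrays as well. Of 30 DNA replication genes, 20 were at least 2-fold lower in hepatospheres and 0 higher, with a median of -1.53, and PRIM1 and POLA1 stood at -2.30 and -2.26. Of 24 mitosis genes, 15 were lower and 0 higher, with a median of -1.23, and HMMR and CENPE stood at -1.94 and -1.83. Many recombination genes are known to be transcribed in S phase. The part of the proliferation difference in the repair gene values was not tested, and in bulk RNA fewer cells in S phase and less RNA per cell cannot be told apart.

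The promoters of the lower genes are shown because E2F factors, which switch on S phase genes, are known to act at several of them. RefSeq promoter windows (GRCh38.p14, 250 bases before to 50 after a start) were matched for 30 of the 35 genes, in 43 windows. Of these genes 10 have more than 1 window. The others, FANCI, RAD54B, NBN, XRCC5 and PRKDC, were not matched. Each window was searched on both strands for GCGGGAA or for GCGCGAA, called E2F-type sites here. The first window with such a site is printed for each gene at least 2-fold lower in hepatospheres that holds one, and for RAD54L, whose signals were nearly equal on the arrays. Sequences run 5′ to 3′ on the strand of the gene, and capitals mark the E2F-type sites. The BRCA1 window is chr17:43125315-43125614 on the minus strand, the BARD1 window chr2:214809634-214809933 on the minus strand, and the BRIP1 window chr17:61863479-61863778 on the minus strand. The EXO1 window is chr1:241847954-241848253 on the plus strand and the BLM window chr15:90717096-90717395 on the plus strand. The FANCF window is chr11:22625774-22626073 on the minus strand and the RAD54L window chr1:46247438-46247737 on the plus strand.
BRCA1: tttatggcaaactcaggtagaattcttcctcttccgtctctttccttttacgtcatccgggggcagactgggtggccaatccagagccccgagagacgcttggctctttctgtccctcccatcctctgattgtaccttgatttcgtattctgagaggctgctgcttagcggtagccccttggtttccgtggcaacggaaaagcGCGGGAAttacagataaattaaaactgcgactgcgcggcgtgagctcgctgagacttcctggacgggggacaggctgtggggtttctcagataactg
BARD1: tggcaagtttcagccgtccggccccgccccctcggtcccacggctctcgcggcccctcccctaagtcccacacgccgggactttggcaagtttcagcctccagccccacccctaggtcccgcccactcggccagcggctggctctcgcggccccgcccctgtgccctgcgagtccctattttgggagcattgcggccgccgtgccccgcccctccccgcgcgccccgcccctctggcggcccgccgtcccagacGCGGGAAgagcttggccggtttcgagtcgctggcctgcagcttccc
BRIP1: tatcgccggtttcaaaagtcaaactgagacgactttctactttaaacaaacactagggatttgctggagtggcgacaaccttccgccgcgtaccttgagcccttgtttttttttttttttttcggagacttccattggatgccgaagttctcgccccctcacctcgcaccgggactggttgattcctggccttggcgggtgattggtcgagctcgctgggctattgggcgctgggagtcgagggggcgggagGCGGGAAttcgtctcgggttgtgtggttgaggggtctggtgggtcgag
EXO1: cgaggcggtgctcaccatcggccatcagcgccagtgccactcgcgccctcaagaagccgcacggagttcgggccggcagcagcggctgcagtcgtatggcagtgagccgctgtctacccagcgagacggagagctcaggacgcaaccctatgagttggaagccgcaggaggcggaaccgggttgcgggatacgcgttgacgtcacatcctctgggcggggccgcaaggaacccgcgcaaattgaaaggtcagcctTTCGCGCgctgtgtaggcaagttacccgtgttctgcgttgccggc
BLM: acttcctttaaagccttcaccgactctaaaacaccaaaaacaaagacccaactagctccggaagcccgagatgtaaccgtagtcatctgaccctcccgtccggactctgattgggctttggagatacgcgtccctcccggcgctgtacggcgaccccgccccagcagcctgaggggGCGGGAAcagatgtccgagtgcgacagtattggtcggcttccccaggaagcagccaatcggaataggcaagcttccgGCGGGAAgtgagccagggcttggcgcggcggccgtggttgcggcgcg
FANCF: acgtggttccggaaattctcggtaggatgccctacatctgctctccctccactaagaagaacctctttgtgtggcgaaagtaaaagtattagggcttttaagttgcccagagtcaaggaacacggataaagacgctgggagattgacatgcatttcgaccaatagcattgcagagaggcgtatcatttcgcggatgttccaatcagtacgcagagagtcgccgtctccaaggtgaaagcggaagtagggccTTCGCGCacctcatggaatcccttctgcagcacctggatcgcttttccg
RAD54L: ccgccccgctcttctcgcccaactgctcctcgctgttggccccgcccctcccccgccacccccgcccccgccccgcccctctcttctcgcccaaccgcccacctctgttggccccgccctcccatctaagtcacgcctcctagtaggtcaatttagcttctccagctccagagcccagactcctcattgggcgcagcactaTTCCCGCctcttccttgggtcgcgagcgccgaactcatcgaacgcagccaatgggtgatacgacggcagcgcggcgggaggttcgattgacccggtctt

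E2F-type sites were present at 16 of the 30 genes (53.3%), against 10.2% of the 27305 genes in the promoter table. By window they were present in 44.2% of the windows of these genes and in 8.54% of all 35116 windows. In BRIP1, BARD1, EXO1 and FANCF the site begins between 2 and 6 bases after the start, whereas in BRCA1 it begins at -47 and in RAD54L at -49. BLM has 2 sites, beginning at -74 and at 4. Among the 25 measured genes with a window, 15 hold a site, against 16.4% of the 10375 measured genes with a window.

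Genes with and without a site overlapped in their differences. Of the 15 holders 6 were at least 2-fold lower in hepatospheres, and their median was -0.89, with a range from BARD1 at -1.85 to RAD54L at 0.00. Of the 10 genes without a site 2 were at least 2-fold lower, FANCB and MRE11. The median of these 10 was -0.67, with a range from FANCB at -2.43 to LIG4 at 0.22. FANCI, also at least 2-fold lower, had no window and is in neither group. Over all measured genes with a window, 11.6% of holders and 8.63% of the others were at least 2-fold lower. The cell cycle homology region, searched as TTTGAA or as TTCGAA, was present at 6.67% of the repair genes, which were BRIP1 and FANCC, against 19.5% of all genes. The CCAAT box, searched as CCAAT, was present at 43.3% against 39.7%, and the E-box, searched as CACGTG, at 3 of the 30 genes against 8.77% of all. Among measured genes with a window, the cell cycle homology region stood at 8% of the repair genes against 15.8% of all. There the CCAAT box stood at 48% against 43.2% and the E-box at 8% against 12.6%. The hits in the windows of the repair genes did not overlap each other. A match describes the letters in the window and does not show that a factor binds there.

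Among genes of the Fanconi core complex, the ubiquitin ligase that acts at a crosslink, 7 of 8 were measured. All 7 lay below 0, where 47.3% of all measured genes did. FANCB, a subunit of the catalytic part of the complex, read 90.3 in hepatospheres and 487.9 in differentiated cells, a 5.40-fold lower signal and the lowest difference of the 30 genes. That size rested on 1 of its 4 probe sets. The other 3 read between 2.24 and 39.1 in hepatospheres, all below the floor, and between 105 and 165 in differentiated cells, so all 4 lay below 0 but these 3 give bounds of only -0.33 to -0.97. FANCB stood at -0.68 with the median over probe sets and at -1.03 with the mean.

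FANCF, an adaptor that holds the complex together, read 446.4 in hepatospheres and 1122 in differentiated cells, 2.51-fold lower. Its other probe set read 542.8 and 715, a difference of -0.40, so the probe sets shared the direction and not the size. FANCG read 990.3 in hepatospheres and 1873 in differentiated cells, and FANCE read 222.6 and 411. These subunits stood at -0.92 and -0.89, just inside 2-fold.

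FANCC, a partner of FANCE in the complex, read 569 in hepatospheres and 735 in differentiated cells. FANCL, the subunit with the ligase activity, was nearly equal on the arrays, at 1553 and 1627, a difference of -0.07 that came out at 0.02 with loess normalization. FANCM, the DNA translocase that anchors the complex on chromatin, was dim, at 101 in hepatospheres and 157 in differentiated cells. Its 3 probe sets above the floor did not go the same way, and without probe sets whose names mark shared sequence FANCM stood at 0.26 instead of -0.63. The differences of the core complex genes thus spread from -2.43 in FANCB to -0.07 in FANCL, with FANCG and FANCE close to the 2-fold line.

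FANCI, one side of the clamp that the core complex ubiquitinates, gave the same picture on all of its probe sets. They read 876, 530.0 and 259.8 in hepatospheres, against 2943, 1453 and 587 in differentiated cells. All 3 were at least 2-fold lower, between -1.18 and -1.75, and the call held in each of the 11 processing alternatives.

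BRCA1 and its partners form complexes that start resection and promote recombination. BRCA1 read 886 in hepatospheres and 2629 in differentiated cells, 2.97-fold lower, and its dimmer probe set read 131 and 328, a difference of -1.32. BARD1, which pairs with BRCA1 to form a ubiquitin ligase, read 289 and 1043 on its brightest probe set, 3.61-fold lower. Its other probe sets stood at -1.74 and -0.86, so all 3 lay below 0.

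BRIP1, a helicase that binds BRCA1 and is also known as FANCJ, read 383 in hepatospheres and 1060 in differentiated cells, 2.76-fold lower. Its other probe set read 61.7, below the floor, and 152.6, a bound of -0.86. PALB2, which links BRCA1 to BRCA2 and is itself a Fanconi gene, read 449.9 and 733, a difference of -0.71. BRCA1, BARD1 and BRIP1 were therefore at least 2-fold lower and PALB2 was not. The first 3 held in every processing alternative in which they were measured. BRCA1 was not measured without shared-sequence probe sets, since both of its probe sets carry such names.

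RAD51B, RAD51C, RAD51D, XRCC2 and XRCC3 encode proteins that work in small complexes with one another during homologous recombination. None of the 4 measured was 2-fold apart on its brightest probe set, where 8.83% of all measured genes were lower and 12.5% higher. RAD51C, which is also a Fanconi anaemia gene, read 995.0 in hepatospheres and 1642 in differentiated cells, a difference of -0.72, but its other probe set read 773 and 1949.8, a difference of -1.34. RAD51D stood at -0.40 on 1 probe set and at -1.06 on the other. XRCC3 read 101 in hepatospheres and 135 in differentiated cells, and XRCC2 read 367 and 447, differences of -0.42 and -0.28 on the only probe set of each. RAD51B reached the floor on 1 of its 4 probe sets only, at 89.4 in hepatospheres and 27.1 in differentiated cells, a bound of 0.09. RAD51C and RAD51D were thus past 2-fold on their dimmer probe sets only.

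The RAD54 motors, which remodel DNA during strand exchange, were nearly equal on the arrays. RAD54L read 291.5 in hepatospheres and 291.6 in differentiated cells, and RAD54B read 763 and 830.4, a difference of -0.12. Each has 1 probe set, and with the poly(A) scaling they stood at -1.03 and -1.15.

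Break ends are sensed by the complex of MRE11, RAD50 and NBN and then cut back to single strands, for which EXO1 is the long-range nuclease and BLM a helicase. EXO1 read 206 in hepatospheres and 633 in differentiated cells, 3.07-fold lower. BLM read 322 and 899.8, 2.79-fold lower. Both have 1 probe set, and both remained at least 2-fold lower in all 11 alternatives.

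The sensor complex was less uniform. MRE11, its nuclease, read 534 in hepatospheres and 1103 in differentiated cells, 2.06-fold lower. Without shared-sequence probe sets MRE11 stood at -0.73, a bound, because the probe set then used read 77.9 in hepatospheres, below the floor. RAD50, the ATPase of the complex, read 770.2 and 680.3, a difference of 0.18. Its other probe sets stood at -1.08 and -0.01, so they did not agree on a direction. NBN, the subunit that recruits the damage kinase, read 1346 and 2518 on its brightest probe set, a difference of -0.90, while another read 933 and 553, a difference of 0.75. The remaining 3 NBN probe sets lay between -0.12 and -0.04, and NBN stood at -0.07 with the mean over probe sets.

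**Figure D2:**
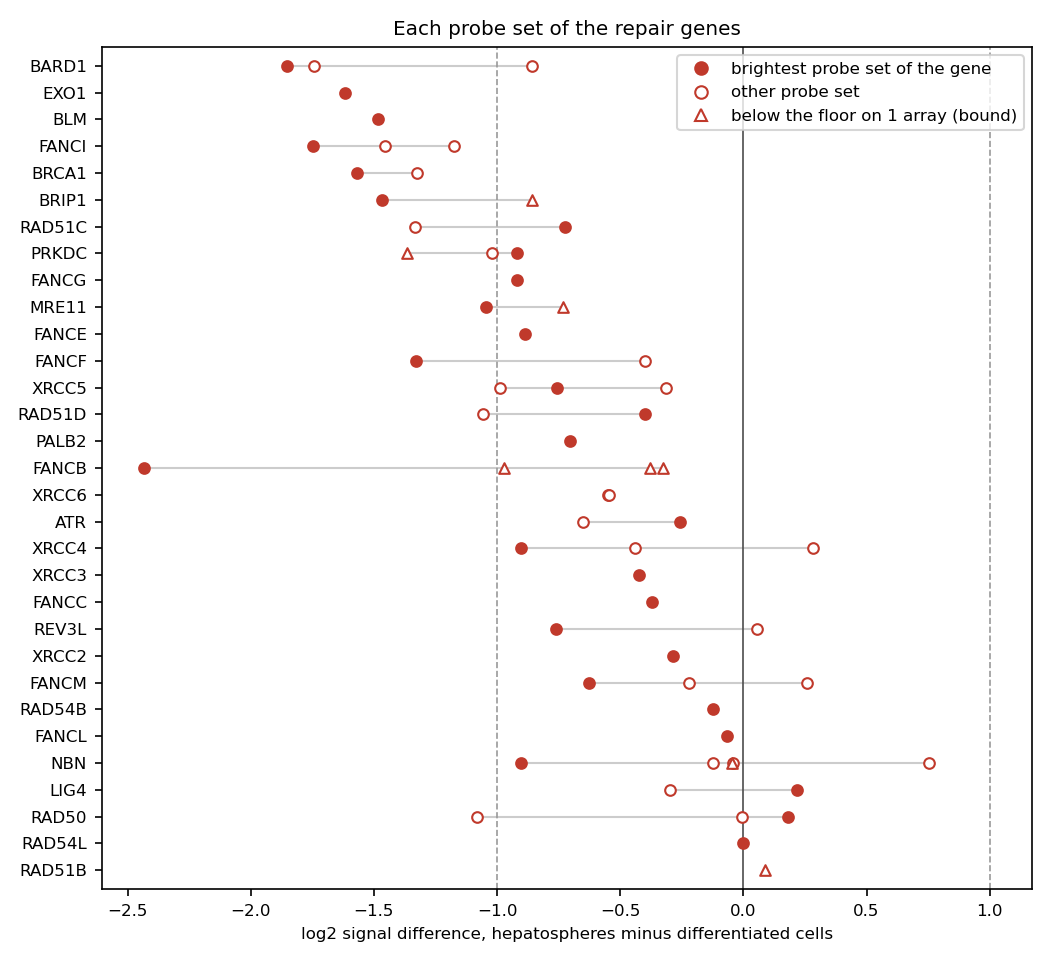
Log2 signal difference (hepatospheres minus differentiated cells) of each of the 62 probe sets that reached the floor, by gene, with filled circles for the brightest probe set of a gene, open circles for the others and triangles for bounds, and dashed lines at 2-fold. The probe sets of FANCI and BRCA1 all lie beyond the left dashed line, whereas those of NBN and RAD50 lie on both sides of 0.

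Across all probe sets of these genes, 62 of 71 reached the floor on 1 array or both and 9 did not. Of the 62, 18 were at least 2-fold lower in hepatospheres and 0 higher, where 9.59% of all 23825 named probe sets that reached the floor were lower and 11.6% higher. Below 0 lay 55 of the 62, against 48.8% of all. Of the 19 genes with more than 1 such probe set, 13 had all of them below 0 and 6 had them on both sides of 0, namely FANCM, RAD50, NBN, XRCC4, LIG4 and REV3L. Probe sets of a gene are repeat measures of the same RNA, and their spread within a gene was 0.66 on the log2 scale in the median and 2.11 at most, in FANCB.

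Of 5 end joining genes 4 lay below 0 and none was 2-fold apart on its brightest probe set. Over all measured genes 47.3% lay below 0, 8.83% were at least 2-fold lower and 12.5% at least 2-fold higher. The Ku proteins XRCC6 and XRCC5 clamp onto a broken end. XRCC6 read 7942 in hepatospheres and 11615 in differentiated cells, a difference of -0.55, and its dimmer probe set stood at -0.54. XRCC5 read 7059 and 11924, a difference of -0.76, and its others stood at -0.99 and -0.32. Both subunits lay below 0 on every probe set.

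PRKDC, the catalytic subunit of the kinase that Ku recruits, read 3506 in hepatospheres and 6633 in differentiated cells, a difference of -0.92. Its other probe sets stood at -1.02 and -1.36, and with the mean over probe sets PRKDC was at least 2-fold lower, at -1.10. XRCC4, the scaffold of the ligation step, read 211 and 395, a difference of -0.90, but its probe sets ran from -0.90 to 0.28. LIG4, the ligase bound to XRCC4, read 535 and 461, a difference of 0.22, with its other probe set at -0.30.

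ATR, the kinase that responds to stalled forks, read 1033 in hepatospheres and 1236 in differentiated cells, a difference of -0.26. Its other probe set above the floor read 274 and 430, a difference of -0.65. REV3L, the catalytic subunit of the polymerase that copies past crosslinked bases, read 620 and 1052, a difference of -0.76. Its other probe set read 277 and 266, so REV3L stood at 0.05 without shared-sequence probe sets.

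The other genes of these pathways were read in 5 lists of 94 genes in all, of which 87 were measured. In hepatospheres 22 of the 87 (25.3%) were at least 2-fold lower and 2 higher, with a median of -0.35, beside 8.83% lower, 12.5% higher and a median of 0.05 over all measured genes. Among 16 other Fanconi and crosslink genes 4 were lower and 0 higher, with a median of -0.28. They were DCLRE1B, a nuclease that also protects telomeres, at -2.08, USP1, which removes ubiquitin from the FANCD2 clamp, at -1.54, CENPX, a histone-fold protein that works with FANCM, at -1.45 and FAAP100, a partner of FANCB, at -1.28. DCLRE1B stood at -1.10 with the mean over probe sets. The other 12 were within 2-fold, among them WDR48, the cofactor of USP1, at 0.44, the core complex partner FAAP20 at 0.45 and UBE2T, which supplies ubiquitin to the core complex, at -0.38. These 3 were named after their values were seen.

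Among 26 other recombination genes 9 were lower and 1 higher, with a median of -0.61. FIGNL1, an ATPase of homologous recombination, read 331 in hepatospheres and 1752 in differentiated cells, 5.29-fold lower. RAD51AP1, a recombination gene, read 880.4 and 4246, 4.82-fold lower. MND1, known best from meiotic recombination, stood at -1.58, and SFR1, a recombination mediator, at -1.48. The higher gene, named after its value was seen, was SWI5, a partner of SFR1, at 1.14, and it stood at 0.89 with median centring and at 0.11 with the poly(A) scaling.

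Among 21 break signalling genes 6 were lower and 1 higher, with a median of -0.45. H2AX, the histone that is phosphorylated around breaks, read 1029 in hepatospheres and 6179 in differentiated cells, a difference of -2.59. BRCC3, which cuts ubiquitin chains in a BRCA1 complex, stood at -2.10, CLSPN, the adaptor between ATR and its target kinase, at -1.95 and TIMELESS, which protects forks, at -1.72. CLSPN stood at -1.36 with a floor at the 60th signal percentile. The higher gene, named after its value was seen, was TP53BP1, a factor that limits resection and favours end joining. It read 1803 in hepatospheres and 638 in differentiated cells, a 2.83-fold higher signal that stood at 0.47 on the log2 scale with the poly(A) scaling.

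Of 13 other end joining genes 3 were lower and 0 higher, with a median of -0.28. They were the polymerases POLL, at 32.5 in hepatospheres and 235 in differentiated cells and so at least 2.79-fold lower, POLM at -1.32 and POLQ at -1.04, and SHLD2, a subunit that shields ends from resection, stood at -0.96. With the floor at the 60th percentile POLL and POLM stood at -0.62 and -0.50. Of 11 other translesion polymerase genes 0 were 2-fold apart, with a median of -0.24. That list also holds genes that encode no polymerase, such as RAD18 and SMARCAL1. POLH stood at -0.51, or at 0.23 with the mean over probe sets, POLK at 0.48, PRIMPOL at -0.47 and MAD2L2, the partner of REV3L, at -0.47.

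**Figure D3:**
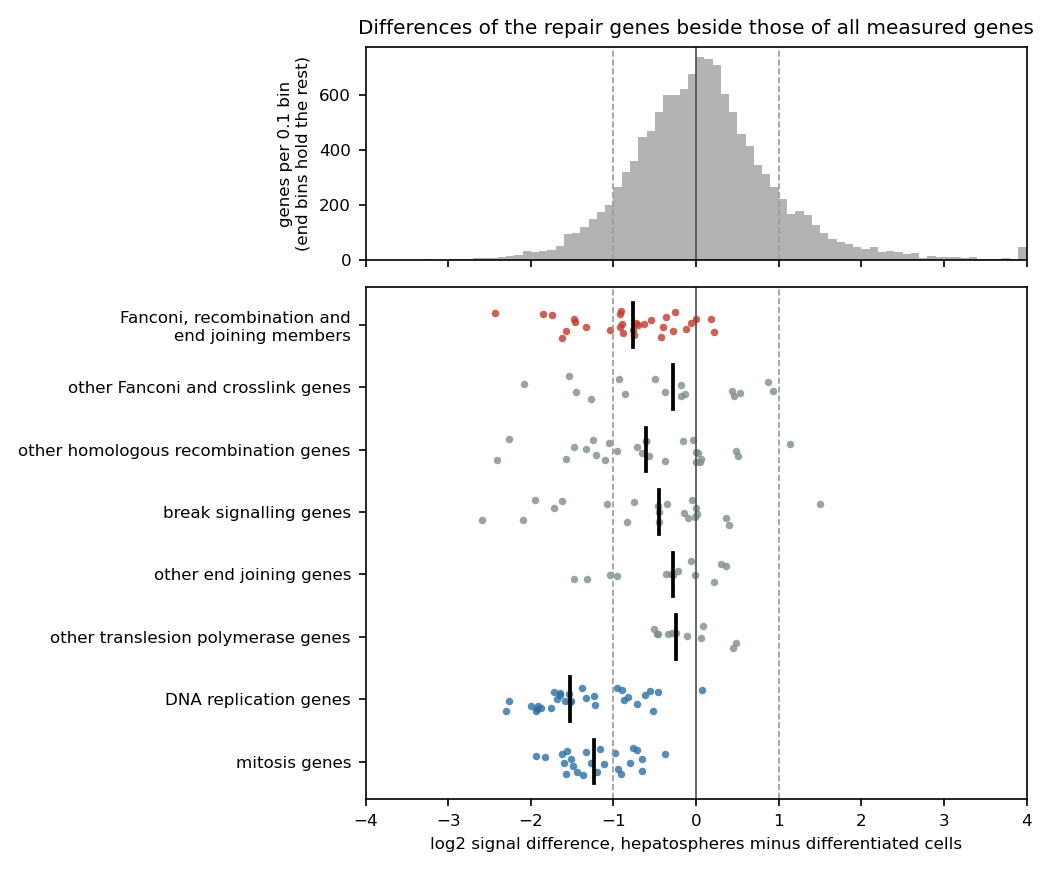
Top, number of all 12766 measured genes by log2 signal difference (hepatospheres minus differentiated cells) in bins of 0.1. Bottom, each measured gene of the repair genes described here, of 5 lists of other pathway genes and of the replication and mitosis lists, with a bar at the median of each list and dashed lines at 2-fold. The medians were -0.76 for the repair genes, between -0.24 and -0.61 for the other pathway lists, and -1.53 and -1.23 for replication and mitosis genes.

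By role, genes at least 2-fold lower in hepatospheres were counted on the brightest probe set, where the share over all measured genes was 8.83%. They were 2 of 7 core complex genes and the 1 clamp gene measured. So were 3 of 4 genes of BRCA1 and its partners and 3 of 5 genes of end sensing and resection. None of RAD51C, RAD51D, XRCC2 and XRCC3, of the 2 RAD54 motors or of the 5 end joining genes was, and neither ATR nor REV3L. On dimmer probe sets RAD51C, RAD51D, PRKDC and RAD50 were past 2-fold lower, so the split between roles depends on the probe set read. The medians were -0.89 for the core complex, -1.52 for BRCA1 and its partners, -1.04 for sensing and resection, -0.76 for end joining, -0.41 for RAD51C, RAD51D, XRCC2 and XRCC3, and -0.06 for the motors. With 1 array a group, differences between these roles were not tested.

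**Figure D4:**
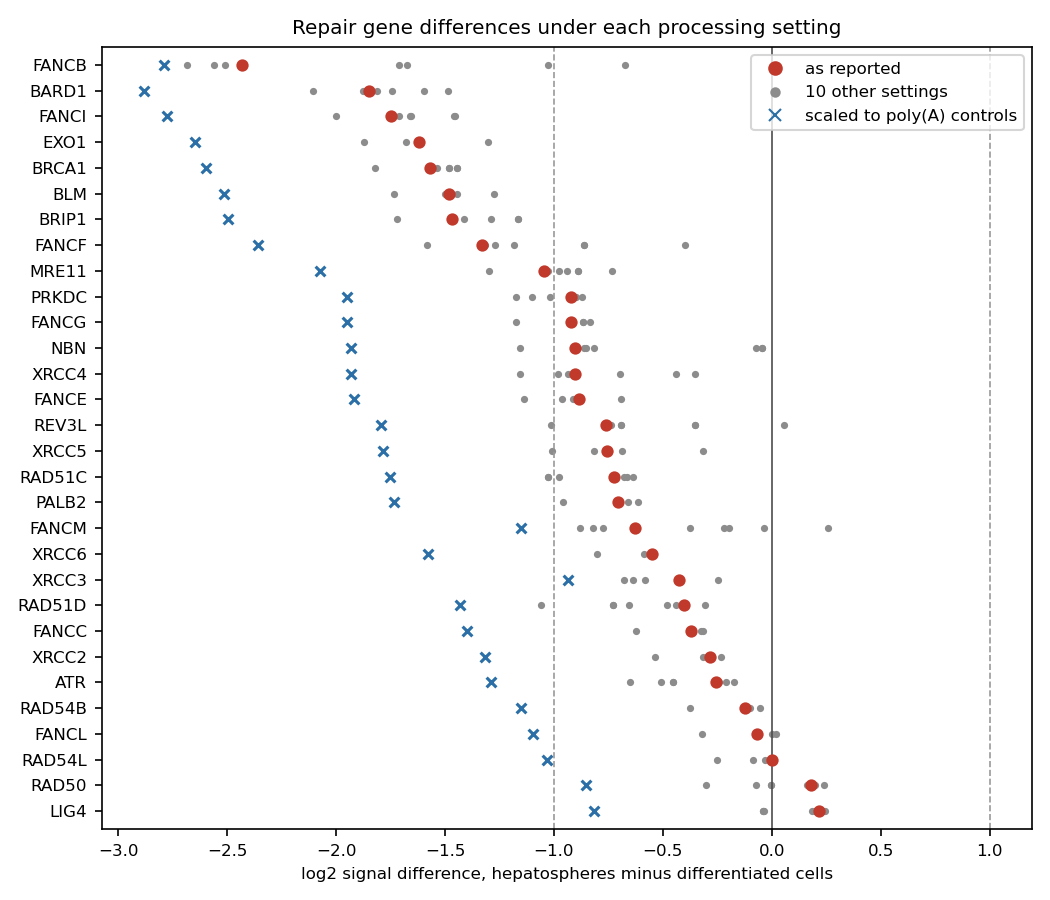
Log2 signal difference (hepatospheres minus differentiated cells) of each of the 30 measured genes as reported, under 10 other processing settings and scaled to the poly(A) controls, with dashed lines at 2-fold. FANCB, FANCF and MRE11 come inside 2-fold in at least 1 setting, 18 of the other 21 genes pass it in at least 1, and FANCL, FANCM, LIG4, RAD50 and REV3L lie on both sides of 0.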

How the data were processed

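Total RNA of 2 PLC/PRF/5 cultures was hybridised to Affymetrix arrays, 1 per group, grouped by source name as the labels give it. Per the labels' protocols, RNA was extracted with Trizol and biotin was the label. The authors deposited a linear intensity for every probe set, computed with MAS5 per the submitters' processing notes. MAS5 takes background and mismatch brightness off each probe and then applies 1 global scale per array, so dim signals are noisy. The MAS5 version and target are not given here, and detection calls were not used.

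GEO's annotation of the array supplied gene names: 41091 had 1 gene symbol, 1801 had several and 11721 were unnamed here. By RefSeq gene identifier (GRCh38.p14) 41037 matched and 0 symbols differed. Each of 19775 symbols was read on its brightest probe set, by mean log2 signal. Signals below the floor (84.1, the 50th percentile of the brighter array) were set to it before log2 was taken, and genes below it on both arrays got no fold. A call means at least 2-fold, since 1 array a group allows no test. Genes and lists were chosen with earlier results of these data known. The rule names every repair gene, the 4 largest differences of each pathway list and the 2 largest of the replication and mitosis lists. Alternatives were median centring, quantile normalization, loess (span 0.3), poly(A) scaling, other floors, log2 of signal plus floor, and other ways to combine probe sets. The fold and motif procedures were tested on simulated data. Protein sequences were not analysed here. Python 3.11.15, numpy 2.4.6, pandas 2.3.3, statsmodels 0.14.6 and matplotlib 3.10.9 were used.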

Additional observations from a re-analysis of the deposited data

How the results depend on the processing

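The 9 repair genes at least 2-fold lower in hepatospheres became 16 with median centring and 27 with scaling to the poly(A) controls, and were between 7 and 9 in the other 9 alternatives. The median of the repair genes stood at -1.79 with the poly(A) scaling and between -1.01 and -0.68 otherwise, and relative to all measured genes it stayed between -0.88 and -0.72 in all 11 alternatives. At least 2-fold higher were 0 repair genes in each of the 11. Of the 9 lower genes, 6 kept the call wherever they were measured. FANCB lost it with the median over probe sets (-0.68), where its dimmer probe sets are held at the floor. FANCF lost it with the mean or median over probe sets (-0.86 each) and without shared-sequence probe sets (-0.40). MRE11 lost it with loess (-0.98), log2 of signal plus floor (-0.94) and the mean or median over probe sets (-0.89 each). MRE11 also lost it without shared-sequence probe sets, where its -0.73 is a bound. Of the 21 genes within 2-fold, 18 were at least 2-fold lower in at least 1 alternative, and 9 of them in one other than the poly(A) scaling, namely FANCE, FANCG, NBN, PRKDC, RAD51C, RAD51D, REV3L, XRCC4 and XRCC5. The cause was not tested. Of the other pathway genes, 65 were at least 2-fold lower with the poly(A) scaling, where their median was -1.34, and 14 without shared-sequence probe sets, where fewer genes are measured. Higher were 1 with median centring and 0 with the poly(A) scaling. Of all measured genes, 14.6% were lower with median centring and 46.5% with the poly(A) scaling, and 3.22% were higher with the poly(A) scaling and 21.4% with no floor. No paired analysis was possible because each group has 1 array. Without replicates, no difference given here can be set against the spread between cultures, and FANCB, FANCM and XRCC3 read between 90.3 and 101 in hepatospheres, close to the floor.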
